A study of Mus musculus with 6 samples.

Results

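The aldehyde dehydrogenases (Aldh genes) and the aldo-keto reductases (Akr genes) were taken by symbol, leaving out Aldh1l2: of 23244 loci listed in each library, 36 matched, 19 Aldh and 17 Akr. RNA sequencing was done on mouse embryonic stem (ES) cells, cells taken from the early embryo that divide in culture without limit. The first group was 3 libraries of a subcloned Zscan10-null ES cell line, and the second was 3 libraries of ES cells with both Zscan10 alleles floxed but not deleted, called control here. The design text describes a conditional line made with Cre and loxP; the sources used here do not give what drives or induces the Cre. A -Tx in the title, found on every control and no null library, is not explained. The null cells were a subclone, so effects of the clone, the genotype and whatever -Tx stands for cannot be told apart. Since no label states that the triplicates were grown separately, p-values measure the spread between these libraries alone, which may be technical.

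Aldehyde dehydrogenases oxidise aldehydes to carboxylic acids with NAD+ or NADP+ as the acceptor. Some members clear reactive aldehydes such as acetaldehyde, and others carry out fixed steps of amino acid, GABA, carnitine or folate metabolism. Some Aldh1a members, Aldh1a2 among them, turn retinaldehyde into retinoic acid, a signal that drives ES cells to differentiate. Aldo-keto reductases work in the other chemical direction, reducing aldehydes and ketones to alcohols with NADPH; they include aldose reductase, which turns glucose into sorbitol, and a group of steroid dehydrogenases.

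Values are read as FPKM, fragments per kilobase of transcript scaled to the depth of the library, so levels can be compared between genes per length. Zscan10 averaged 5.13 ± 0.607 FPKM in null and 43.0 ± 1.14 FPKM in control libraries (SD, n = 3 each). All 10 ES cell markers checked, among them Pou5f1 and Sox2, were expressed. Their summed level was 4062 to 4395 FPKM in null and 4342 to 4431 FPKM in control libraries. At the adjusted threshold used below, 0 were higher and 2 lower in null, where 12.8% of all tested loci were higher and 12.4% lower. At an unadjusted limma p of 0.05 the counts were 1 and 3. The share of all loci at an unadjusted p was not computed, here or below. Depth was not given; if genes above 0 in a single library rest on 1 fragment there, the null libraries held about 7350000 to 8010000 and the control libraries 7340000 to 8080000 fragments. Fragment numbers below use this rough estimate.

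The start regions of 4 genes are shown because they belong to the members that passed in every alternative setting able to test them and to a close relative of 1 of them. Aldh18a1 and Aldh5a1 were lower and Akr1b8 higher in null libraries, and Akr1b10 is the neighbour of Akr1b8 on chromosome 6. Each is RefSeq's stretch from 250 bases before to 50 bases after the annotated start, on GRCm38.p6 (the same build as mm10), read 5′ to 3′ on the gene's strand: chr19:40588414-40588713 (minus) for Aldh18a1, chr13:24937612-24937911 (minus) for Aldh5a1, chr6:34353896-34354195 (plus) for Akr1b8 and chr6:34383997-34384296 (plus) for Akr1b10. Capitals mark matches, on either strand, to 7 short motifs. These were the TATA box TATAAA, the NF-Y box CCAAT, the GC box GGGCGG, the E-box CACGTG, the antioxidant response element core TGANNNNGC, the C/EBP-ATF composite element TGATGNAA and the estrogen-related receptor site TCAAGGTCA.
Aldh18a1: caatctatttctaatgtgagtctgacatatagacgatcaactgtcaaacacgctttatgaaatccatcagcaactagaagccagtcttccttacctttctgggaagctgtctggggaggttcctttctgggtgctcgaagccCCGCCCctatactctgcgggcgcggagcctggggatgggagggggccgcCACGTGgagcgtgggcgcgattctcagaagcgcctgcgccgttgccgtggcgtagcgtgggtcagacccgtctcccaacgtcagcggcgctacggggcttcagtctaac
Aldh5a1: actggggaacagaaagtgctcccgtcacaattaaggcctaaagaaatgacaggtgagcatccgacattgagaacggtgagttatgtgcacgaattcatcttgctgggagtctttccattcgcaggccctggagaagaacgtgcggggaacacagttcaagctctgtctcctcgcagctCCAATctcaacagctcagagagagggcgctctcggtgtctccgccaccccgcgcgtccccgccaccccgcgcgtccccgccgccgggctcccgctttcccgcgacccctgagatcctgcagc
Akr1b8: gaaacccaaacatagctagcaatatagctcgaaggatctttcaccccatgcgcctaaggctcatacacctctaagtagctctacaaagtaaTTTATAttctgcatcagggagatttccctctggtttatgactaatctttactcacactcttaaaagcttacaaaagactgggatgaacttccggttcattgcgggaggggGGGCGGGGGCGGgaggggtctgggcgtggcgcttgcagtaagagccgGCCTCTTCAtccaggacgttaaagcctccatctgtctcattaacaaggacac
Akr1b10: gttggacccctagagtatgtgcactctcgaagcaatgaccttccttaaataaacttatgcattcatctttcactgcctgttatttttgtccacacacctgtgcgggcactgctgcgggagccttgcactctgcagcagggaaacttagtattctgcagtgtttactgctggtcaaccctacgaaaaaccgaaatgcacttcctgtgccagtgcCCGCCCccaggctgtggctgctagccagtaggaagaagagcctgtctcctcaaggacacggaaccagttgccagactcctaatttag

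The Aldh18a1 stretch held a CACGTG beginning 59 bases before the start and a GGGCGG on the other strand 108 bases before it. Aldh5a1 held a CCAAT 72 bases before the start and none of the other motifs. Akr1b8 held a pair of adjoining GGGCGG matches 49 and 43 bases before the start, a TATAAA on the other strand 159 bases before it and a TGANNNNGC on the other strand that begins 2 bases before it. Akr1b10, whose coding sequence is 85.4% identical to that of Akr1b8, shared a GGGCGG match, on the other strand, and held no TATAAA or TGANNNNGC in this window. Of the 27025 promoters in the RefSeq table, 7.24% held CACGTG, 35.9% GGGCGG, 14.2% TATAAA, 37.9% CCAAT and 41.4% TGANNNNGC, so none of these matches is rare. TGATGNAA was in 4.06% and TCAAGGTCA in 0.407% of all promoters, and neither was in any of the 29 member promoters available. A match is a description of the letters and does not show that a factor binds there.

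Members of these families shifted modestly in both directions in null ES cells. Among subfamilies, Akr1b alone held calls in both directions, and the other opposed calls were between genes grouped here by role. Of the 36 loci, 19 had a mean of at least 1 FPKM over the 6 libraries and were tested together with all other such loci by limma on log2(FPKM + 1). At a Benjamini-Hochberg adjusted p of 0.05, 4 were higher in null (Akr1b8, Aldh1b1, Aldh4a1 and Akr1a1), 5 were lower (Aldh18a1, Aldh5a1, Aldh3a2, Aldh2 and Akr1b3) and 10 did not pass. That is 47.4% of the tested members, where 25.2% of all 11480 tested loci and 28.2% of the 6223 loci averaging 10 FPKM or more passed. In each direction, 12.8% of all loci were higher and 12.4% lower. The median log2 difference over the 19 was 0.07, against 0.00 over all tested loci, and the called members moved by a median of 0.31 in either direction, against 0.35 over all called loci. In 14 of the 19 the 3 null and 3 control values did not overlap, which was so for 44.1% of all tested loci.

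**Figure D1:**
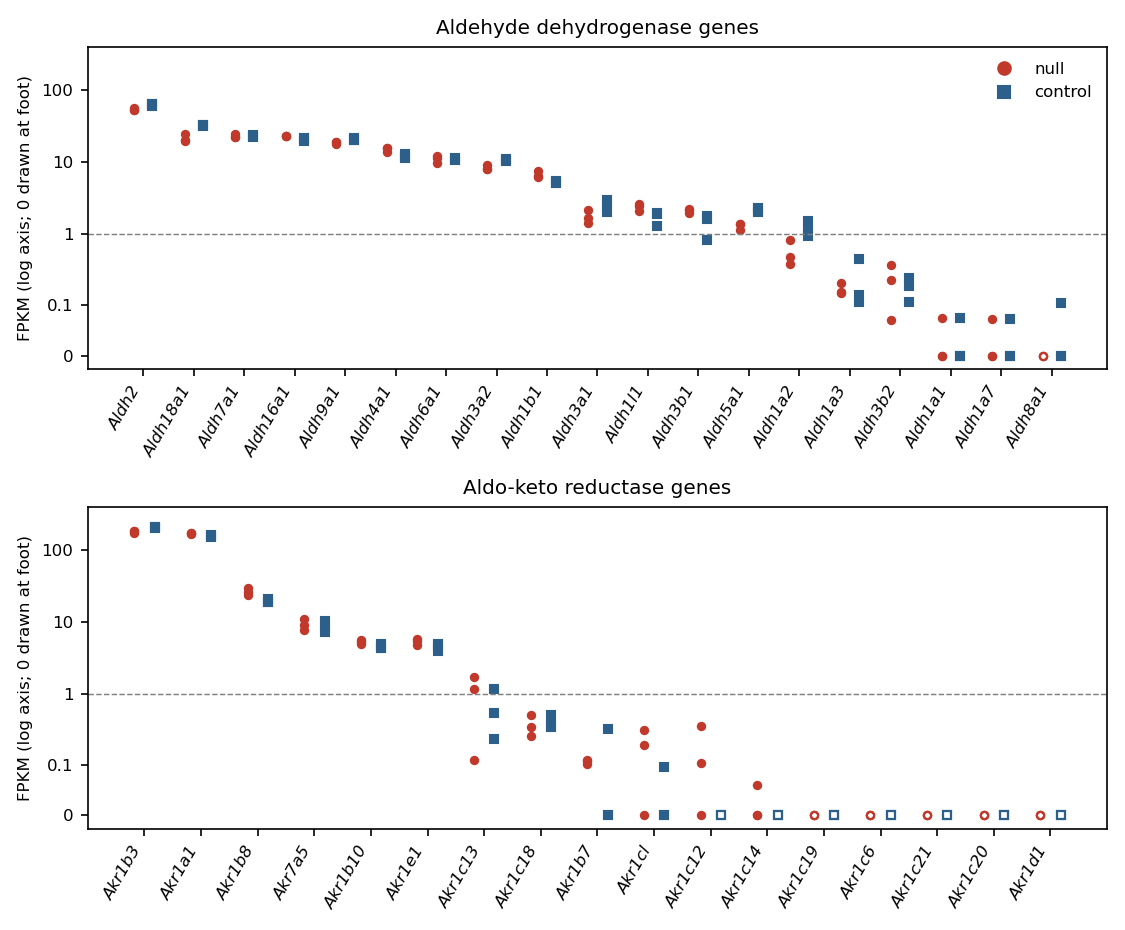
FPKM of every Aldh (upper) and Akr (lower) locus on a log axis, ordered by mean level, with 3 null (circles) and 3 control (squares) libraries each; open symbols mark groups at 0 in all 3 libraries, drawn at the foot and the dashed line is the minimum of 1 FPKM. Akr1b3, Akr1a1 and Aldh2 stand highest in both groups, and most Akr1c genes and Akr1d1 lie at or near 0.

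Each family was dominated by a few genes. The 17 Akr loci summed to 394, 398 and 401 FPKM in null and to 409, 403 and 390 FPKM in control libraries, sums that overlapped. Akr1b3 made up 43.3%, 45.9% and 46.0% of that sum in null and 51.6%, 51.2% and 51.3% in control libraries. Akr1a1 made up 44.3%, 42.9% and 41.5% in null and 39.0%, 38.9% and 39.3% in control libraries. The Akr1b3 share was lower and the Akr1a1 share higher in every null library than in any control library. The 19 Aldh loci summed to 196, 189 and 186 FPKM in null and to 213, 209 and 203 FPKM in control libraries, without overlap, and Aldh2 contributed 27.7% to 29.2% of it in null and 30.1% to 30.4% in control libraries.

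**Figure D2:**
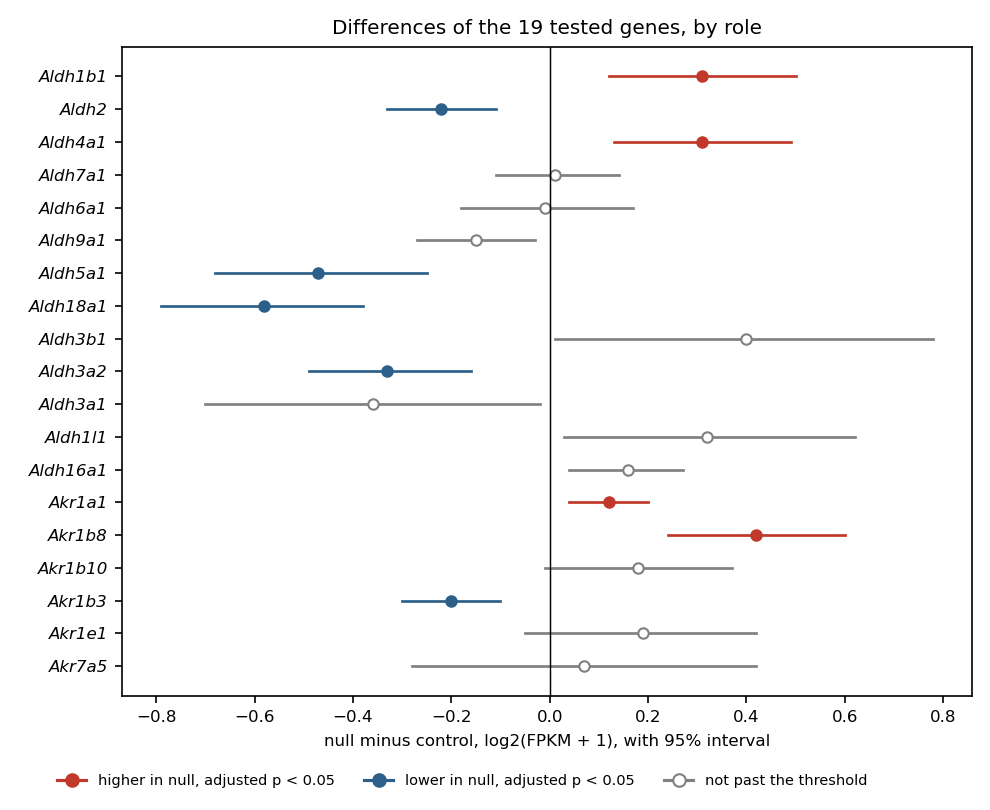
Null minus control difference on the log2(FPKM + 1) scale for the 19 tested genes, grouped by role, with the 95% interval of limma; filled points passed an adjusted p of 0.05. Akr1b8, Aldh1b1, Aldh4a1 and Akr1a1 lie right of 0, and Aldh18a1, Aldh5a1, Aldh3a2, Aldh2 and Akr1b3 left of it.

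Aldh2 and Aldh1b1, the mitochondrial enzymes that oxidise acetaldehyde and related small aldehydes, moved in opposite directions. Aldh2, the most abundant Aldh gene, had 57.2, 52.3 and 52.4 FPKM in null libraries, against 64.5, 63.4 and 61.2 FPKM in control libraries. All null values lay below all control values, and Aldh2 fell by 0.22 on the log2(FPKM + 1) scale (SE 0.05, limma adjusted p = 0.0149); its mean fell by 14.4%. Aldh1b1 had 6.2, 7.47 and 6.46 FPKM in null libraries, against 5.37, 5.09 and 5.16 FPKM in control libraries. The groups again did not overlap, and Aldh1b1 rose by 0.31 (SE 0.08, limma adjusted p = 0.0281). The Aldh1b1 to Aldh2 ratio was 0.108, 0.143 and 0.123 in null and 0.0832, 0.0802 and 0.0843 in control libraries, so Aldh2 was still several times more abundant per length in every library. The coding sequences of the pair are 71.8% identical, and neither shares a stretch of 50 bases with any other annotated gene. The Aldh2 call was lost without control replicate 1 (adjusted p = 0.0583) or 2 (0.0542). The Aldh1b1 call was lost without null replicate 2 or 3 (0.0667 and 0.058) and without control replicate 1, 2 or 3 (0.0669, 0.091 and 0.0783).

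Both ends of proline metabolism changed, in opposite directions. Aldh18a1, the P5C synthase that starts proline synthesis from glutamate, had 24.9, 20.2 and 19.5 FPKM in null libraries, against 33.2, 32.5 and 32.1 FPKM in control libraries. It fell by 0.58 on the log2(FPKM + 1) scale (SE 0.09, limma adjusted p = 0.00381), the largest difference of the 19 on this scale, and passed in each of the 13 alternative settings. Every null value was below every control value, and null replicate 1 lay nearest to the control libraries. Aldh4a1, the P5C dehydrogenase that ends proline breakdown by making glutamate, had 13.6, 15.9 and 15.9 FPKM in null libraries, against 12.8, 11.7 and 11.5 FPKM in control libraries. It rose by 0.31 (SE 0.08, limma adjusted p = 0.0245), again with null replicate 1 nearest to the control values. The Aldh4a1 to Aldh18a1 ratio was 0.545, 0.787 and 0.816 in null and 0.384, 0.361 and 0.357 in control libraries. The Aldh4a1 call was lost without null replicate 2 or 3 (0.0752 and 0.0783) and without control replicate 2 or 3 (0.0827 and 0.079), and 45.0% of the 50-base stretches of its transcript also occur in the annotated locus Gm21969, so its level is uncertain to that extent.

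The other enzymes of the proline and glutamate routes were read from a list of 28 partner enzymes of the Aldh amino acid, GABA and carnitine steps. Of its 22 tested genes 3 rose, 5 fell and 14 did not pass, 36.4% against 25.2% of all loci, with a median log2 difference of 0.05. Without control replicate 1, control replicate 2 or null replicate 2, 3 fell, and with median centring 5 rose. Pycr1, which reduces P5C to proline, had 3.77, 2.71 and 2.12 FPKM in null libraries, against 6.15, 6.33 and 5.02 FPKM in control libraries. It fell by 0.84 (SE 0.16, limma adjusted p = 0.00964), with null replicate 1 highest of the null libraries, as in Aldh18a1. The following genes of the list were picked out after their values were seen. Pycrl, a relative of Pycr1, was at 15.4 FPKM in null and 16.9 FPKM in control libraries and did not pass (limma adjusted p = 0.298). Prodh, the proline dehydrogenase that starts proline breakdown, was at 14.3 ± 1.32 FPKM in null and 12.9 ± 1.99 FPKM in control libraries and did not pass (limma adjusted p = 0.37). Oat, which links ornithine to P5C, rose by 0.34 (limma adjusted p = 0.00492), and Glud1, the glutamate dehydrogenase, rose by 0.46 (limma adjusted p = 0.000397). Pycr1 lies on chromosome 11, whose 939 tested genes had a median difference of -0.12; the part of that in the fall of Pycr1 was not tested.

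**Figure D3:**
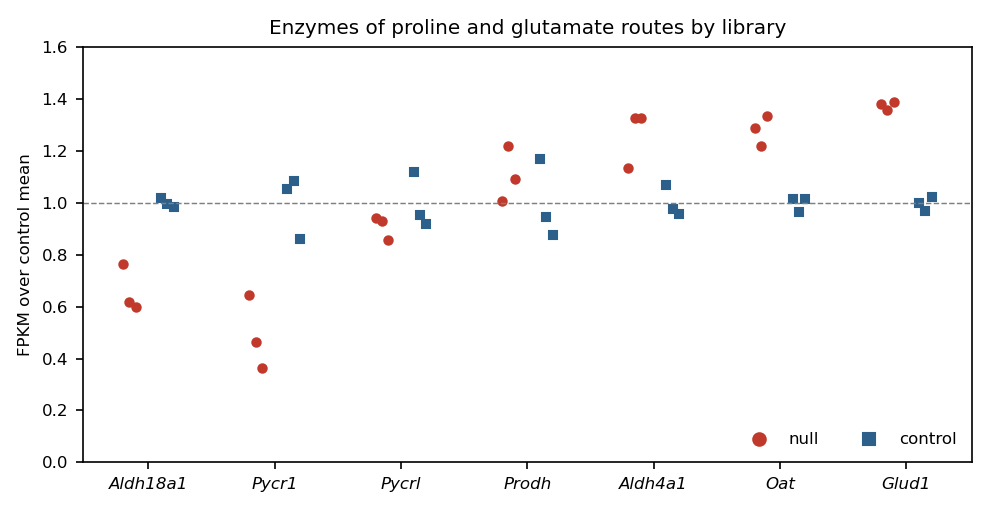
FPKM of 7 enzymes of the proline and glutamate routes in each library, divided by the gene's control mean (dashed line at 1), for null (circles) and control (squares). Aldh18a1 and Pycr1 lie lower in null without overlap, Aldh4a1, Oat and Glud1 higher, and the groups of Prodh and Pycrl overlap.

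Of the remaining enzymes on amino acid, GABA and carnitine routes, Aldh5a1 changed. Aldh5a1, the succinic semialdehyde dehydrogenase that ends GABA breakdown, had 1.36, 1.35 and 1.14 FPKM in null libraries, against 2.31, 2.14 and 2.03 FPKM in control libraries. It fell by 0.47 (SE 0.09, limma adjusted p = 0.0108), and its mean fell by 40.5%, the largest relative change among the called members. At the estimated depth these levels stand for about 48 to 61 fragments in null and 86 to 98 fragments in control libraries, and the call held without any single library. The GABA-making enzymes Gad1 and Gad2 had means under 0.4 FPKM in both groups, and Abat, which acts just before Aldh5a1, averaged 1.09 FPKM in null and 0.736 FPKM in control libraries and was below the minimum for the test. Aldh6a1, which acts in valine and thymine breakdown, was at 12.0, 9.81 and 11.4 FPKM in null and at 11.3, 11.1 and 10.8 FPKM in control libraries. Its difference was -0.01 with a 95% interval of -0.18 to 0.17 (limma adjusted p = 0.963). Aldh7a1, the antiquitin gene of lysine breakdown, was at 23.3 ± 1.23 FPKM in null and 23.1 ± 0.897 FPKM in control libraries, with a difference of 0.01 and an interval of -0.11 to 0.14. Both intervals span 0. Aldh5a1, Aldh6a1, Aldh7a1, Aldh16a1 and Aldh1l1 overlap exons of other annotated genes, and since use of strand is not stated, reads of the overlap cannot be assigned. Aldh9a1, which makes a carnitine precursor, was at 18.5 ± 0.624 FPKM in null and 20.6 ± 0.839 FPKM in control libraries and did not pass (difference -0.15, limma adjusted p = 0.0676). In the valine route itself, Bckdha, a subunit of the branched-chain keto acid dehydrogenase, rose by 0.50 to 72.9 ± 4.25 FPKM in null, against 51.3 ± 3.42 FPKM in control libraries (limma adjusted p = 0.00202). Fah, the last enzyme of tyrosine breakdown, fell by 0.50 (limma adjusted p = 0.0318), and Tmlhe, Bbox1 and Hpd, of carnitine synthesis and tyrosine breakdown, were listed at 0 in every library.

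Aldh3 genes encode enzymes for longer-chain and aromatic aldehydes and lie in pairs, Aldh3a1 with Aldh3a2 on chromosome 11 and Aldh3b1 with Aldh3b2 on chromosome 19. Aldh3a2, the fatty aldehyde dehydrogenase, had 9.17, 7.97 and 7.99 FPKM in null libraries, against 10.8, 11.1 and 10.2 FPKM in control libraries. The groups did not overlap, and it fell by 0.33 (SE 0.07, limma adjusted p = 0.016). The call was lost without control replicate 1 or 2 (0.0586 and 0.0637) and without null replicate 2 or 3 (0.051 and 0.0528). Its chromosome had 260 genes lower and 56 higher among 939 tested, with a median of -0.12, and the part of that shift in the fall of Aldh3a2 was not tested. Aldh3a1, a crystallin of the cornea that also oxidises aromatic aldehydes, was at 1.40, 1.66 and 2.16 FPKM in null and at 2.93, 2.61 and 1.99 FPKM in control libraries. The highest null value exceeded the lowest control value, and the difference of -0.36 did not pass (95% interval -0.70 to -0.02, limma adjusted p = 0.108). Aldh3b1 was at 2.17, 1.95 and 2.21 FPKM in null and at 0.811, 1.62 and 1.78 FPKM in control libraries. These did not overlap, but the control libraries spread widely and the difference of 0.40 did not pass (limma adjusted p = 0.121) and was 0.20 without control replicate 1. Of the 50-base stretches of the Aldh3b1 and Aldh3b2 transcripts, 9.55% and 24.2% occur in other genes, mostly Aldh3b3, and Aldh3b2 stayed under 0.4 FPKM in every library.

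Aldh1l1, the folate enzyme that oxidises formyl-tetrahydrofolate, was at 2.62, 2.40 and 2.08 FPKM in null and at 1.29, 1.95 and 1.88 FPKM in control libraries. The groups did not overlap, and the difference of 0.32 did not pass (95% interval 0.03 to 0.62, limma adjusted p = 0.103); without control replicate 1, the lowest library, it was 0.20. Aldh16a1, an atypical member of the family, was at 23.0 ± 0.294 FPKM in null and 20.5 ± 1.0 FPKM in control libraries. It lay just outside the threshold (difference 0.16, limma adjusted p = 0.0534). It passed in 2 of 13 alternative settings, median centring of the libraries (0.0352) and a minimum of 5 FPKM (0.0443). It passed in none of the 6 that left out a library (limma adjusted p from 0.0631 to 0.146 there).

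The genes grouped here as retinaldehyde dehydrogenases, not all of which need act on retinaldehyde, were all low. None of the 5 genes of this group, Aldh1a1, Aldh1a2, Aldh1a3, Aldh1a7 and Aldh8a1, reached a mean of 1 FPKM over the 6 libraries. Aldh1a2, which makes most retinoic acid in the early embryo, had 0.472, 0.373 and 0.816 FPKM in null libraries, against 1.22, 1.5 and 0.935 FPKM in control libraries. It was the only member under the minimum whose groups did not overlap with a higher mean of at least 0.5 FPKM, and 15.4% of all loci below the minimum had groups that did not overlap. The values stand for about 7 to 14 fragments in null and 16 to 27 fragments in control libraries, and an exact two-sided permutation test gave p = 0.1, the smallest that 3 against 3 libraries allow. Without the minimum its limma adjusted p was 0.0537, in a fit that called 13.9% of 18476 loci. Aldh1a3 stayed between 0.150 and 0.206 FPKM in null and between 0.113 and 0.450 FPKM in control libraries. Aldh1a1 and its near copy Aldh1a7, whose coding sequences are 91.9% identical, were above 0 in the same 2 libraries, null replicate 1 and control replicate 3. Each value there was about 0.066 FPKM, or 1 fragment, so these genes cannot be told from each other or from background at this depth. Aldh8a1 was listed at 0 except for 0.108 FPKM in control replicate 2.

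Aldh1a2 is also made by mesenchymal and other differentiated cells, so markers of these were read beside it. The 12 fibroblast markers summed to 9.68 to 15.3 FPKM in null and 17.5 to 21.3 FPKM in control libraries. Of the 4 that could be tested, 1 rose and 2 fell, where 12.8% of all tested loci were higher and 12.4% lower. Thy1 rose (limma adjusted p = 0.0215), at 2.98 FPKM in null and 1.65 FPKM in control libraries. Acta2 fell, at 1.73 and 3.93 FPKM in null and control, as did Tagln, at 4.86 and 8.8 FPKM. Below the minimum, Col1a1 was at 0.0861 FPKM in null and 0.738 FPKM in control libraries, and Col1a2 at 0.0776 and 1.13 FPKM. Col3a1 and Pdgfrb had higher means in null, at 0.395 and 0.428 FPKM, against 0.363 and 0.322 FPKM in control libraries. Postn was listed at 0 in all null libraries, and Lum was at 0 in all control libraries. The 9 endoderm markers summed to 20.6 to 28.9 FPKM in null and 49.0 to 52.3 FPKM in control libraries. Most of it came from the basement membrane genes Lama1 and Col4a1. Of 4 tested genes, 0 were higher and 2 lower, beside the same 12.8% and 12.4%. At an unadjusted limma p of 0.05 the counts were 0 and 3, without a share of all loci to set beside them. The defining transcription factors Sox17 and Foxa2 averaged under 0.3 FPKM in both groups. The sum of the 5 mesoderm markers went the other way, at 6.02 to 7.61 FPKM in null and 2.70 to 3.26 FPKM in control libraries. Both that could be tested rose, where 12.8% of all tested loci were higher. Eomes was at 4.25 FPKM in null and 1.37 FPKM in control libraries, and Hand1 at 1.79 FPKM in null and 0.577 FPKM in control libraries. The untested T, Mixl1 and Kdr had lower means in null, at 0.254, 0.128 and 0.358 FPKM, against 0.337, 0.189 and 0.58 FPKM in control libraries. The 5 neural markers summed to 62.7 to 70.9 FPKM in null and 87.8 to 95.6 FPKM in control libraries. Of 5 tested, 0 were higher and 3 lower, beside the same 12.8% and 12.4% (also 0 and 3 at an unadjusted limma p of 0.05). The part of these cells in the Aldh1a2 values was not tested, and in bulk RNA fewer cells of a type and less RNA per cell cannot be told apart.

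The wider retinoid genes were read from a list of 25 carriers, enzymes and receptors. Of the 11 tested, 3 rose, 3 fell and 5 did not pass (54.5% against 25.2% of all loci, median 0.19); without control replicate 2 or 3 the genes that fell numbered 1. Crabp2, a carrier that brings retinoic acid to its receptors, had 8.60, 10.1 and 13.0 FPKM in null libraries, against 6.75, 4.93 and 5.04 FPKM in control libraries. It rose by 0.81 (SE 0.16, limma adjusted p = 0.0104). Crabp1, the other cellular retinoic acid carrier, fell by 0.44 (limma adjusted p = 0.0193), at 9.59 ± 1.51 FPKM in null and 13.2 ± 0.622 FPKM in control libraries. Among the receptors, Rarg, the most abundant, rose by 0.41 to 106 ± 1.94 FPKM in null, against 79.3 ± 2.01 FPKM in control libraries (limma adjusted p = 0.000607). Among receptors named after their values were seen, Rara fell by 0.40 (limma adjusted p = 0.00578) and Rxrb by 0.18 (limma adjusted p = 0.036); Rara lies on chromosome 11. The carriers and receptors thus moved both ways within each class. The retinol dehydrogenase Rdh10 was at 2.81 ± 0.509 FPKM in null and 2.65 ± 0.613 FPKM in control libraries, and the retinoic acid hydroxylase Cyp26a1 was at 0.487 ± 0.181 FPKM in null and 0.788 ± 0.0892 FPKM in control libraries, below the minimum.

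A second list held 14 genes that respond to retinoic acid. Of the 6 tested, 3 rose, 0 fell and 3 did not pass (median 0.32, where 12.8% of all loci were higher; at an unadjusted limma p of 0.05 also 3 and 0), and Crabp2 is on both lists. Meis2, a homeobox cofactor, had 3.35, 2.96 and 3.01 FPKM in null libraries, against 0.982, 0.722 and 1.09 FPKM in control libraries, and rose by 1.09 (SE 0.11, limma adjusted p = 0.000912). Rex2, a zinc-finger gene with close relatives whose reads may be shared, rose by 0.54 to 57.6 ± 4.32 FPKM in null, against 39.2 ± 2.57 FPKM in control libraries (limma adjusted p = 0.00211). Stra8, Meis1 and Tgm2 did not pass, and the other 8 genes had means under 1 FPKM over the 6 libraries.

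Akr1a1, the aldehyde reductase that reduces glucuronate among other substrates, had 175, 171 and 166 FPKM in null libraries, against 160, 157 and 153 FPKM in control libraries. Every null value was above every control value, but the difference was small, 0.12 (SE 0.03, limma adjusted p = 0.04), an 8.89% higher mean. It passed in 3 of 13 alternative settings and in none of the 6 that left out a library (adjusted p from 0.0512 to 0.107 there), so it is a marginal call.

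The 4 Akr1b genes lie side by side within 119 kb of chromosome 6 (mm10, 34303930 to 34423137), in the order Akr1b3, Akr1b8, Akr1b10 and Akr1b7. Neighbours in this cluster changed in opposite directions. Akr1b3, the aldose reductase gene, had 171, 183 and 184 FPKM in null libraries, against 211, 206 and 200 FPKM in control libraries. It fell by 0.20 (SE 0.04, limma adjusted p = 0.0148); its mean fell by 12.9%, and the groups did not overlap. Akr1b8, first found as a gene induced by fibroblast growth factor, had 26.1, 23.7 and 29.1 FPKM in null libraries, against 19, 20.5 and 18.8 FPKM in control libraries. It rose by 0.42 (SE 0.08, limma adjusted p = 0.00872), the largest rise on this scale of the 4 that passed, and was called in each of the 13 alternative settings. The Akr1b8 to Akr1b3 ratio was 0.153, 0.130 and 0.158 in null and 0.0900, 0.0991 and 0.0938 in control libraries. Akr1b10 was at 5.57, 5.22 and 4.97 FPKM in null and at 4.97, 4.27 and 4.35 FPKM in control libraries, which barely failed to overlap, and its difference of 0.18 did not pass (95% interval -0.01 to 0.37, limma adjusted p = 0.141). Akr1b7 stayed at or under 0.317 FPKM in every library. The coding sequences of Akr1b7, Akr1b8 and Akr1b10 are 85.4% to 89.2% identical to each other and 73.0% to 74.4% identical to Akr1b3. Even so, 3.21% of the 50-base stretches of the Akr1b8 transcript occur in other genes. For Akr1b3 the share is 59.9%, most of it (56.2%) in the pseudogene Gm6644, so the level of Akr1b3 is uncertain to the extent that reads were split. The Akr1b3 call was lost without control replicate 1 (0.0574) or 2 (0.0535).

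**Figure D4:**
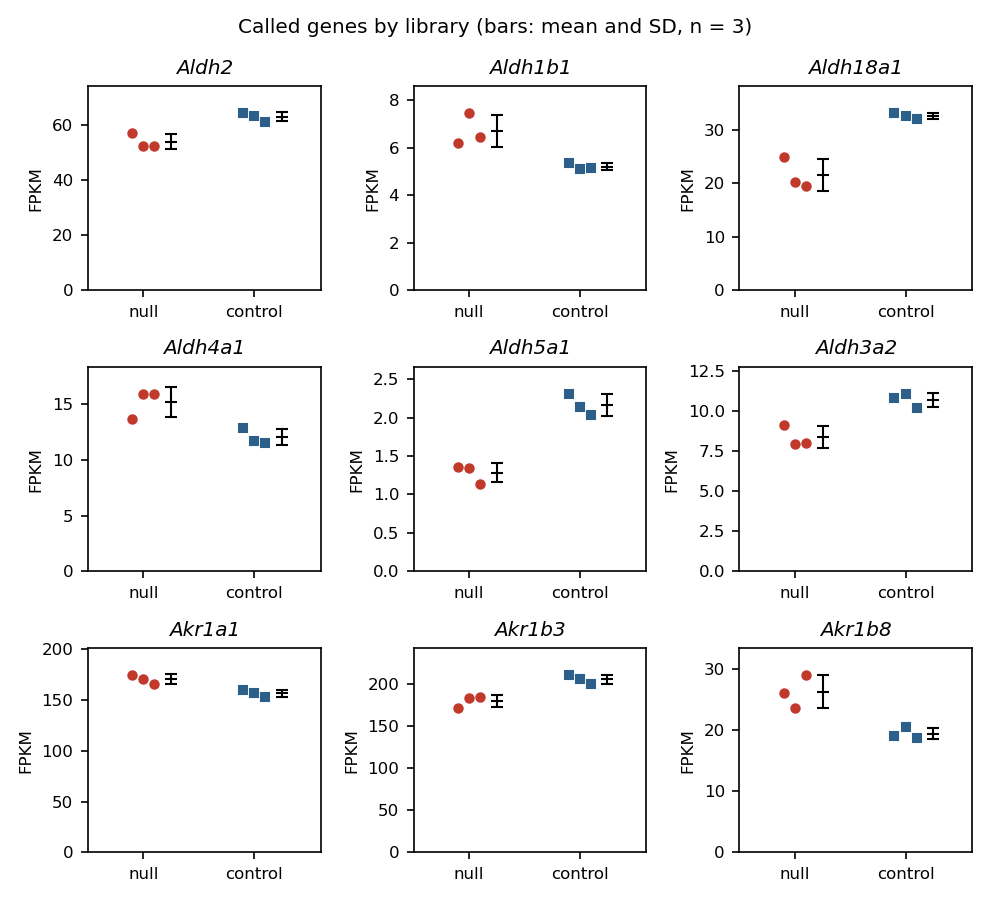
FPKM of the 9 called genes in each null (circles) and control (squares) library, on axes that start at 0, with the mean and SD (n = 3 each) beside them. The 2 groups do not overlap in any panel; Aldh18a1 and Aldh5a1 show the clearest separation and Akr1a1 the smallest relative one.

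Aldose reductase is the entry to the polyol route, and Sord, the sorbitol dehydrogenase that follows it, moved the other way. Sord had 15.3, 14.8 and 15.9 FPKM in null libraries, against 11.8, 10.8 and 11.0 FPKM in control libraries. It rose by 0.42 (SE 0.06, limma adjusted p = 0.00257). The Sord to Akr1b3 ratio was 0.0895, 0.0811 and 0.0861 in null and 0.0558, 0.0521 and 0.0548 in control libraries. The groups of each gene already lay apart in opposite directions, so those of the ratio could not overlap.

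The Akr1c genes, steroid and prostaglandin dehydrogenases, form a cluster with Akr1e1 over 560 kb of chromosome 13 (mm10, 4048991 to 4609164), apart from Akr1cl on chromosome 1. None of the 9 reached a mean of 1 FPKM, and Akr1c6, Akr1c19, Akr1c20 and Akr1c21 were listed at 0 in all 6 libraries, as was Akr1d1, the steroid reductase of bile acid synthesis. Akr1c13 was the highest, at 0.119, 1.71 and 1.17 FPKM in null and at 0.234, 0.537 and 1.17 FPKM in control libraries. The spread within each group was wider than the distance between them. Its neighbour Akr1c12 is 96.2% identical in coding sequence and shares 28.6% of its 50-base stretches with Akr1c13; it was above 0 in null replicates 2 and 3 alone, at 0.107 and 0.351 FPKM, about 1 to 3 fragments. Akr1c14 was above 0 in null replicate 3 alone, at 0.0535 FPKM, and Akr1cl stayed at or under 0.314 FPKM. Akr1c18, which inactivates progesterone, was at 0.252, 0.341 and 0.497 FPKM in null and at 0.373, 0.342 and 0.499 FPKM in control libraries. Akr1e1, at the end of the cluster, makes a reductase of anhydrofructose and was expressed, with 5.32, 5.75 and 4.70 FPKM in null and 4.93, 3.94 and 4.63 FPKM in control libraries, values that overlapped (difference 0.19, limma adjusted p = 0.207). Akr7a5, which reduces aflatoxin dialdehyde and succinic semialdehyde, was at 9.27 ± 1.77 FPKM in null and 8.74 ± 1.44 FPKM in control libraries, with a 95% interval of -0.28 to 0.42.

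CpG content of the start regions was read against expression. Of the 29 members with a RefSeq promoter, the 15 with a mean of at least 1 FPKM had a median CpG observed over expected ratio of 0.555 (0.235 to 0.903) and a median GC content of 58.3%. The 14 members under 1 FPKM had a median ratio of 0.145 and a GC content of 43.5%. Over all promoters matched to a locus by symbol, the medians were 0.782 for 8401 loci above the minimum and 0.257 for 7659 below it, an order that the members shared. Aldh1a2 stood apart among the members under 1 FPKM: its promoter had the highest ratio of the 29 members, 1.11, with 50 CpG sites in 300 bases. Its mean over the 6 libraries was 0.886 FPKM, at 0.553 FPKM in null and 1.22 FPKM in control libraries. The called members with a promoter sequence did not share a promoter type. Ratios were 0.902 for Aldh18a1 and 0.891 for Aldh5a1, which fell. They were 0.555 for Akr1b8, 0.434 for Aldh4a1 and 0.322 for Aldh1b1, which rose. For Aldh3a2, which fell, the ratio was 0.736, and for Akr1a1, which rose, 0.597. Aldh2 and Akr1b3, which also fell, had no promoter sequence available, so the ratios do not cover all called members.

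**Figure D5:**
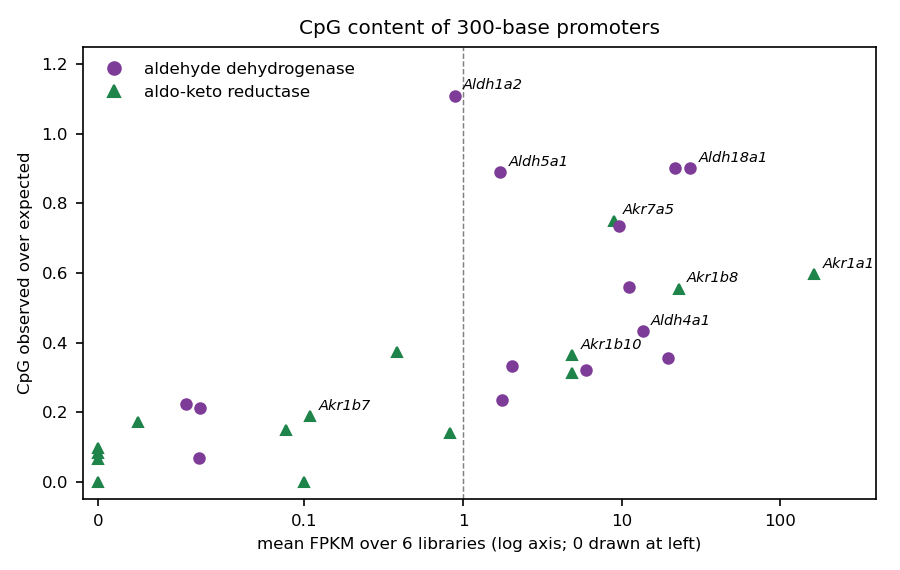
CpG observed over expected ratio of the 300-base promoter against the mean FPKM over 6 libraries (log axis, 0 drawn at the left), for 29 members; circles are Aldh and triangles Akr genes, and the dashed line is 1 FPKM. Of the members under 1 FPKM, Aldh1a2 is highest, at a ratio of 1.11, and Akr1c18 next, at 0.373, within the range of the expressed members.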

How the data were processed

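Per the labels, total RNA was depleted of ribosomal RNA before sequencing; tools listed in the submitters' processing notes are TopHat, Cuffdiff, FastQC and Trim Galore, with mm10 as the build; which tool did what, and in which version, is not stated. The authors deposited 1 value per locus and library, taken here as FPKM because the values are not whole numbers and their totals differ between libraries; no label or header states the unit, or whether strand was used or how reads matching several loci were treated. Depth was estimated from 57 to 87 loci per library that were above 0 there alone.

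limma 3.58.1 (R 4.3.3; mean-variance trend) was fitted on log2(FPKM + 1) after dropping loci whose mean was under 1 FPKM, with Benjamini-Hochberg adjustment over all of them; this scale understates changes of low genes. The members and gene lists were chosen with earlier results of these data known; of 114 list symbols 112 were found. All tested members are named, and from each list up to 4 genes past the threshold with the largest differences, except some that are not reported here. Genes were placed on GRCm38.p6 by RefSeq accession (35 members) or symbol. Shared stretches are exact 50-base words among GENCODE M21 transcripts, and coding identity is over aligned bases (Biopython 1.88). Alternatives changed the pseudocount, minimum, scaling, variance trend, a replicate block and each library.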

Additional observations from a re-analysis of the deposited data

How the results depend on the processing

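Aldh18a1, Akr1b8 and Aldh5a1 passed under every alternative that could test them, with log2 differences of -0.69 to -0.52, 0.34 to 0.49 and -0.71 to -0.42. With 4 members higher and 5 lower as reported, leaving out 1 library gave 1 to 3 higher and 2 to 5 lower (2 lower without control replicate 1 or 2), and 1697 to 2903 called loci in all, against 2894. No minimum left 2 members higher, and a replicate block left 1 higher and 5 lower. Same-numbered libraries deviated together weakly (correlations of -0.0024, 0.108 and 0.0527 for numbers 1 to 3), so the numbers were not taken to pair them; null replicate 1 correlated best with control replicate 3 (0.163). Under the block Akr1a1 (adjusted p = 0.056), Aldh1b1 (0.062) and Aldh4a1 (0.065) no longer passed. Sign changes were seen in members near 0 that never passed: Aldh6a1 at 0.02 with median centring or quantile normalization and -0.06 to 0.07 leaving out 1 library (0.01 without control replicate 1, 0.07 without null replicate 2); Aldh7a1 at -0.00 with quantile normalization, and -0.03 to 0.04 leaving out 1 library (-0.01 without control replicate 3, -0.03 without null replicate 2); Akr7a5 at -0.05 to 0.19 leaving out 1 library (-0.04 without control replicate 3, -0.05 without null replicate 1). Akr1a1 was also lost with quantile normalization (0.127) and without the variance trend (0.104). Counts of called genes in the lists also moved by over 1.5 times under single alternatives, as given beside them. On the list of alcohol dehydrogenases, carbonyl reductases and related genes, 1 was higher, against 2, with a minimum of 5 FPKM. The cause of these changes was not tested. Depth limits the Akr1c and Aldh1a genes, most of which rest on a few fragments.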

Other observations

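Genes on a list of other carbonyl-handling and related enzymes, outside the named families, were called about as often as loci in general. The list held alcohol dehydrogenases and carbonyl reductases, and also genes that are neither, among them Aox3, Glo1, Hagh, Esd and Khk. Of its 27 genes 18 were tested: 2 rose, 3 fell and 13 did not pass (27.8%, against 25.2% of all loci, with a median of -0.07). Aox3, an aldehyde oxidase, had 2.05, 1.95 and 1.61 FPKM in null libraries, against 0.317, 0.317 and 0.318 FPKM in control libraries, and rose by 1.12 (SE 0.10, limma adjusted p = 0.000805). Cbr3, a carbonyl reductase, had 4.68, 3.65 and 4.50 FPKM in null libraries, against 7.37, 7.34 and 7.40 FPKM in control libraries, and fell by 0.67 (limma adjusted p = 0.00252). Dhrs7b fell by 0.43 (0.00731) and lies on chromosome 11, and Dhrs1, named after its value was seen, fell by 0.35 (0.0125). Adh5, the abundant enzyme that clears formaldehyde as its glutathione adduct, was at 212 ± 2.26 FPKM in null and 221 ± 2.32 FPKM in control libraries and did not pass (difference -0.05, limma adjusted p = 0.226).

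A list of 20 genes around the oxidative stress factor NRF2 was read as well. Of the 17 tested, 0 rose, 6 fell and 11 did not pass, with a median of -0.22. That is 35.3% called, against 25.2% of all loci, and 12.4% of all loci were lower. At an unadjusted limma p of 0.05, 1 was higher and 12 lower. The share of all loci at that unadjusted threshold was not computed, so the unadjusted counts have no background beside them. Without control replicate 2 the genes that fell numbered 3, and without null replicate 1, 1 rose. Me1, malic enzyme, fell by 0.53 (limma adjusted p = 0.00475), Hmox1, heme oxygenase, by 0.40 (0.00326), Txnrd1, thioredoxin reductase, by 0.30 (0.00662) and Abcc1, a glutathione conjugate exporter, by 0.28 (0.0151). Nqo1, a quinone reductase on the list, was at 25 ± 1.99 FPKM in null and 22.0 ± 0.751 FPKM in control libraries (limma adjusted p = 0.0951).

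Null replicate 1 lay nearest to the control mean in 6 of the 9 called members, and in 44.8% of all 2894 called loci, against 28.9% and 26.3% for null replicates 2 and 3.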
